A study of Mus musculus with 6 samples.

Results

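Serine palmitoyltransferase and the ceramide synthases carry out the steps that commit fatty acids to sphingolipids. The 10 genes described here are the small subunits Sptssb and Sptssa, the long-chain-base subunits Sptlc1, Sptlc2 and Sptlc3, and the ceramide synthases Cers2 to Cers6, out of 55385 mouse genes in the count table. Sptssb was chosen by its large rise in counts in the same comparison that is shown here, so its difference between the groups is a description and carries no test. The other 9 genes were listed as its partners in the complex and in the pathway. Of these, 8 passed the filter on low counts and were tested, and Sptlc3 did not pass it.

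RNA was sequenced from PDVC57, an established line of mouse squamous carcinoma cells of keratinocyte origin. One group had Sox2 knocked out (3 libraries) and the other overexpressed Sox2 (3 libraries), a transcription factor of stem cells, and there was no group with unchanged Sox2. The series' design text describes low-Sox2 and high-Sox2 carcinoma cells taken out of grafted tumours and asks which mechanism under Sox2 acts on neutrophils. The labels do not say how many clones or tumours stand behind each group, whether the 3 libraries of a group came from separate animals, or how host cells were removed, so the p-values measure the spread between these libraries. Library totals were 31247976 to 38543221 estimated counts. A level of 3 counts, about the upper 95% limit on the expected count where 0 is seen, corresponds to 0.0759 to 0.101 CPM. CPM is the count scaled to a common library total with TMM factors. These limits cover counting error only. Only RNA was measured, and neither enzyme activity nor any lipid.

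The enzyme joins serine to a fatty acyl-CoA to make the sphingoid base. Sptlc1 pairs with a catalytic subunit, Sptlc2 or Sptlc3, and a small subunit, Sptssa or Sptssb, raises the activity of the pair and steers which acyl-CoA it accepts, Sptssb toward longer chains. Ceramide synthases then attach a second acyl chain, and each member prefers its own chain lengths. In skin, ceramides with very long chains are building blocks of the epidermal water barrier.

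Because the 2 small subunits had such different levels here, and because Sptlc3 was the other member close to absent in the knockout libraries, the stretches upstream of these 3 genes are shown from RefSeq on GRCm38.p6, written 5′ to 3′ on the strand of the gene, with each CpG dinucleotide in capitals. All 10 genes had at least 1 RefSeq window. The Sptssb stretch lies at chr3:69859941-69860144 on the minus strand, that of Sptssa at chr12:54656574-54656822 on the minus strand, and that of Sptlc3 at chr2:139493663-139493912 on the plus strand.
Sptssb: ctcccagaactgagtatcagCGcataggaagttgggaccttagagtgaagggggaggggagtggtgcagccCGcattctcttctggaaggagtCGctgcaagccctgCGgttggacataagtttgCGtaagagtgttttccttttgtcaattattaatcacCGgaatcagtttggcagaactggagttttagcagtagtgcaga
Sptssa: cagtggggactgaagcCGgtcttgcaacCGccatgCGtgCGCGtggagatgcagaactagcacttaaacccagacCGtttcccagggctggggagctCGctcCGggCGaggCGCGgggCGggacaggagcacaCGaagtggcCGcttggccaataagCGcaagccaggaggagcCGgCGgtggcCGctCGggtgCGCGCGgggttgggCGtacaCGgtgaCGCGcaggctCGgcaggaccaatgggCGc
Sptlc3: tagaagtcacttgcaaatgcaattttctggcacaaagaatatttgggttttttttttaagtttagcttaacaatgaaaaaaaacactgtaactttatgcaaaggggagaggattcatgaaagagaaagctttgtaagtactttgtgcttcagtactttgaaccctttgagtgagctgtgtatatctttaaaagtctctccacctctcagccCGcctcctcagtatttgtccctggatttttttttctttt
The Sptssa stretch held 28 CpG in 249 bases, the Sptssb stretch 6 in 204 bases and the Sptlc3 stretch 1 in 250 bases. Over the whole RefSeq window of 300 bases (250 before the start and 50 after it), Sptssa had 31 CpG, more than 89.4% of the 32807 mouse windows of that length. Sptssb had 9, with 54.2% of windows holding fewer, and Sptlc3 had 1, with 5.43% holding fewer. The windows of Sptlc1, Sptlc2, Cers5 and Cers6 had 19 to 28. Cers3 had 7, which is the median of all windows.

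SOX factors bind short sequences of the types ACAATG and ACAAAG. At least 1 of these motifs, on either strand, was found in 28.6% of all windows. The Sptssb and Sptssa windows held neither. In Sptlc3, ACAATG lay 181 bases before the start, and ACAAAG lay 219 bases before it and, on the opposite strand, 122 and 111 bases before it. Sptlc1 and Cers3 had 1 match each, both to ACAAAG. A match is a matter of letters and shows no binding, and no binding was measured.

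Sox2 itself separated the groups as labelled. It had 25 to 49 counts in the knockout libraries and 2566 to 4095 in the overexpression libraries, which is 1.08 ± 0.377 and 103 ± 24.9 CPM (SD, n = 3 each).

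Sptssb (ENSMUSG00000043461, protein-coding, chromosome 3, 69819542 to 69859940, minus strand, GRCm38) went from near absence to the level of the other subunits. Its counts were 7, 2 and 0 in knockout replicates 1, 2 and 3, and 1282, 1479 and 3004 in overexpression replicates 1, 2 and 3. Every overexpression library was far above every knockout library, and overexpression replicate 3 was the highest. The corresponding levels were 0.205, 0.0661 and 0 CPM against 39.1, 50.03 and 76.0 CPM. The fitted log2 fold change was 9.21. Pooled over libraries, 9 counts stood against 5765, a ratio of 634 with an exact 95% interval from 334 to 1387 that covers counting error only. Most of the 9 counts came from knockout replicate 1. Without it, the pooled ratio was 1888 (522 to 15595) and the fitted log2 fold change 10.68, and without knockout replicate 3 the fitted value was 8.59.

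Sptssa (chromosome 12, 54645392 to 54656573), the broadly expressed small subunit, had 23.7, 26.5 and 22.4 CPM in the knockout libraries and 27.1, 25.3 and 27.4 CPM in the overexpression libraries. These values overlap between groups. Its log2 fold change was 0.14 ± 0.15 (SE), with an adjusted p of 0.519 by edgeR's quasi-likelihood test and an approximate 95% interval from -0.16 to 0.43. Adding the small subunits up shows how much of the pool was Sptssb. Per kilobase of exon, Sptssa and Sptssb together had 16.0 ± 1.38 CPM per kilobase with knockout and 47.7 ± 10.7 with overexpression (SD, n = 3 each). Sptssb made up 0.713%, 0.207% and 0% of this pool in the knockout libraries and 54.6%, 62.2% and 69.8% in the overexpression libraries. Relative to Sptlc1, which is present in every form of the enzyme, the summed small-subunit level was 0.883 to 1.12 with knockout and 2.07 to 3.73 with overexpression, while the ratio of Sptssa alone was 0.877 to 1.12 and 0.782 to 1.13. The size of such a ratio between genes depends on the length used. Per coding length the summed ratio was 2.41 to 3.05 with knockout and 6.24 to 11.4 with overexpression, and the overexpression mean was 2.97 times the knockout mean in place of 2.68 times.

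**Figure D1:**
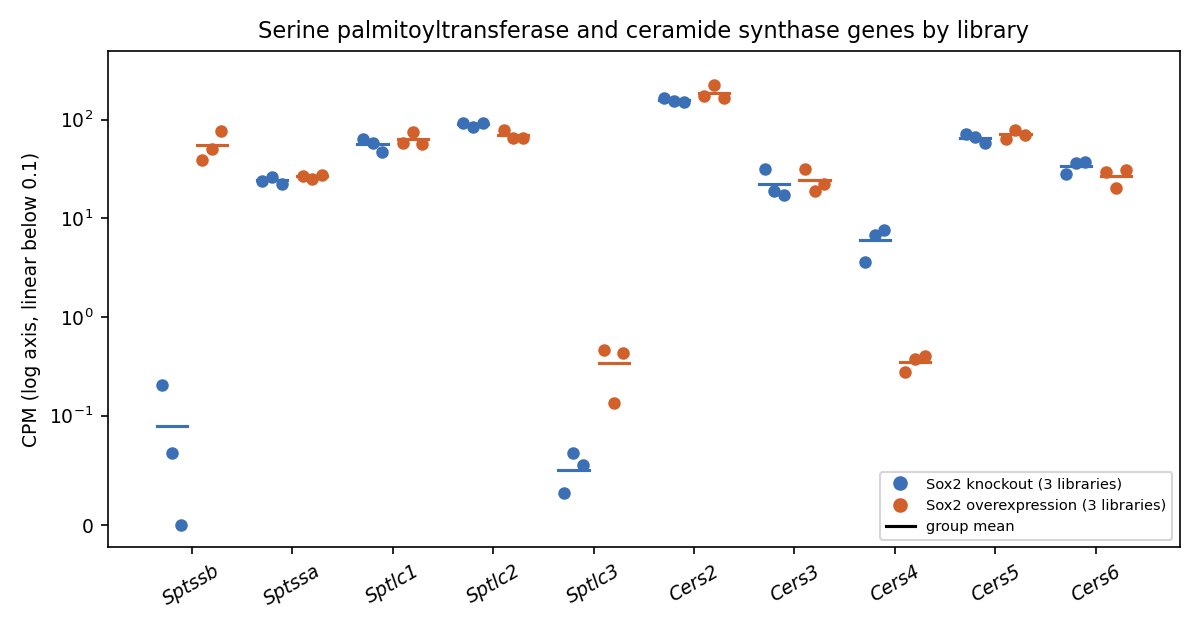
Level of each of the 10 genes in CPM (vertical axis, logarithmic above 0.1 and linear below) in the 3 Sox2 knockout libraries (blue) and the 3 Sox2 overexpression libraries (orange), with a line at each group mean. Sptssb lies at 0 to 0.205 CPM with knockout and at 39.1 to 76.0 CPM with overexpression, Cers4 moves the other way, and most other genes have groups that overlap or lie close together.

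None of the large subunits passed the threshold of an adjusted p of 0.05. Sptlc1 (chromosome 13, 53332748 to 53377397), the shared subunit, had 63.4, 58.5 and 46.9 CPM with knockout and 57.7, 75.8 and 56.8 CPM with overexpression. The groups overlapped, and the log2 fold change was 0.17 ± 0.18 (SE, edgeR adjusted p = 0.494, approximate 95% interval -0.18 to 0.52). Sptlc2 (chromosome 12, 87305058 to 87388355), the main catalytic subunit in these libraries, had 92.4, 85.0 and 92.4 CPM with knockout and 78.9, 64.8 and 65.1 CPM with overexpression. Every overexpression library was below every knockout library, and such groups without overlap were seen for 50.9% of all tested genes and for 3 of the 8 tested partners of Sptssb (Sptlc2, Cers2 and Cers4). The log2 fold change of -0.37 ± 0.14 (SE) did not pass (edgeR adjusted p = 0.0802).

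Sptlc3 (chromosome 2, 139493913 to 139637674), the catalytic subunit that widens the range of acyl chains used, was barely detected. It had 1, 2 and 2 counts in the knockout libraries and 15, 4 and 17 counts in the overexpression libraries. The groups did not overlap, but all knockout libraries had fewer than 3 counts. The pooled ratio was 7.13 with an exact 95% interval from 2.79 to 23.3, which covers counting error only. Per kilobase, Sptlc3 was 0.0904% to 0.221% of the catalytic-subunit level with knockout and 0.592% to 1.85% with overexpression, so Sptlc2 supplied nearly all of it in every library. The share differed with p = 0.1 in a two-sided exact permutation test, the smallest p that 3 against 3 libraries allow, and 0.233 after Benjamini-Hochberg adjustment over the 7 shares tested.

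Among the ceramide synthases 1 of 5 members, Cers4, changed past the threshold. Over the 8 tested partners of Sptssb that is 1 gene lower and 0 higher, where 31.6% of all tested genes passed, 13.6% higher and 18% lower. The median log2 fold change of these 8 genes was 0.11, against -0.02 for the whole table. DESeq2, which called 34.6% of all tested genes, also called Cers4 alone among them.

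Cers4 (chromosome 8, 4493026 to 4531680), a synthase of long-chain ceramides, had 124, 207 and 277 counts in the knockout libraries and 9, 11 and 16 in the overexpression libraries. Knockout replicate 1 was the lowest of its group and still well above every overexpression library. The level fell from 6.02 ± 2.10 to 0.350 ± 0.0677 CPM (SD, n = 3 each). This was a log2 fold change of -4.09 ± 0.41 (SE, edgeR adjusted p = 0.000117). It passed the threshold in every fit that left out 1 library, with adjusted p-values from 4.48e-05 to 0.00241. Its exons overlap those of the pseudogene Vmn2r-ps89 and of Gm36956 on the other strand, and the strand setting of the counting is not given in the sources used here.

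Fibroblast genes moved with Cers4. The 12 fibroblast markers, among them Col1a1, Pdgfra and Dcn, summed to 60448 to 88542 CPM in the knockout libraries and 279 to 450.2 CPM in the overexpression libraries, and 12 of 12 were lower. In bulk RNA, fewer cells of a type and less RNA per cell cannot be told apart. Leukocyte markers summed to 24.0, 41.3 and 134 CPM in knockout replicates 1, 2 and 3 and to 22.3 to 39.2 CPM with overexpression. Their members went both ways, with 4 of 7 tested lower and 1 higher past the threshold, and a median log2 fold change of -2.85. Over all tested genes 18% were lower and 13.6% higher past it. Ptprc, the pan-leukocyte gene, had 10.6, 21.6 and 88.1 CPM with knockout and 0.427 to 0.541 CPM with overexpression, and Itgam, Cd8a and Ncr1 were the others that fell. Flt3 rose, and Flt3, Csf1r and Cd68 (means of 11.1, 11.6 and 8.62 CPM) made up nearly all of the sum with overexpression. Endothelial markers summed to 33.4 to 127 CPM with knockout and 13.6 to 20.2 CPM with overexpression. Tek made up most of the sum with overexpression (16.9, 9.34 and 15.1 CPM) and did not pass (edgeR adjusted p = 0.216). The other 6 of 7 tested genes were lower past the threshold, against 18% of all tested genes. Among them, Cdh5 went from a mean of 8.49 to 0.0366 CPM and Kdr from 9.25 to 0.0766 CPM. No fibroblast marker was at 0 in any library. Of the leukocyte markers, Adgre1, Cd3e, Cd8a, S100a8, S100a9 and Ncr1 were at 0 in at least 1 library, S100a9 in all 3 overexpression libraries, and of the endothelial markers Cdh5 and Emcn. The epithelial list of 31 genes, which includes Krt5, Krt14 and Epcam, was high everywhere, with 7558 to 11920 CPM in the knockout libraries and 19973 to 25576 CPM in the overexpression libraries, so that keratinocyte genes were present in both groups. The squamous differentiation list rose in sum from 45.0 to 116 CPM up to 637 to 903 CPM. Sprr1a, Krt13 and Krt4 (means of 407, 174 and 113 CPM) made up most of the sum with overexpression. Of the 14 tested genes of the list, 11 had log2 fold changes above 0 and 3 below. Among the latter, Krt10 went from a mean of 7.64 to 3.28 CPM and Sbsn from 32.7 to 14.6 CPM. Of the 4 genes not tested, Krt1 had 1, 91 and 589 counts with knockout and 6, 0 and 3 with overexpression. Dsg1a had 0, 66 and 28 against 1, 0 and 9. Sprr2d went the other way, with 0, 1 and 3 against 12, 22 and 5, and Dsc1 had at most 7 in any library. All were named after their values were seen. Whether these marker differences reflect cell content, and their part in the values of Cers4, Sptssb and the pathway genes, was not tested.

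**Figure D2:**
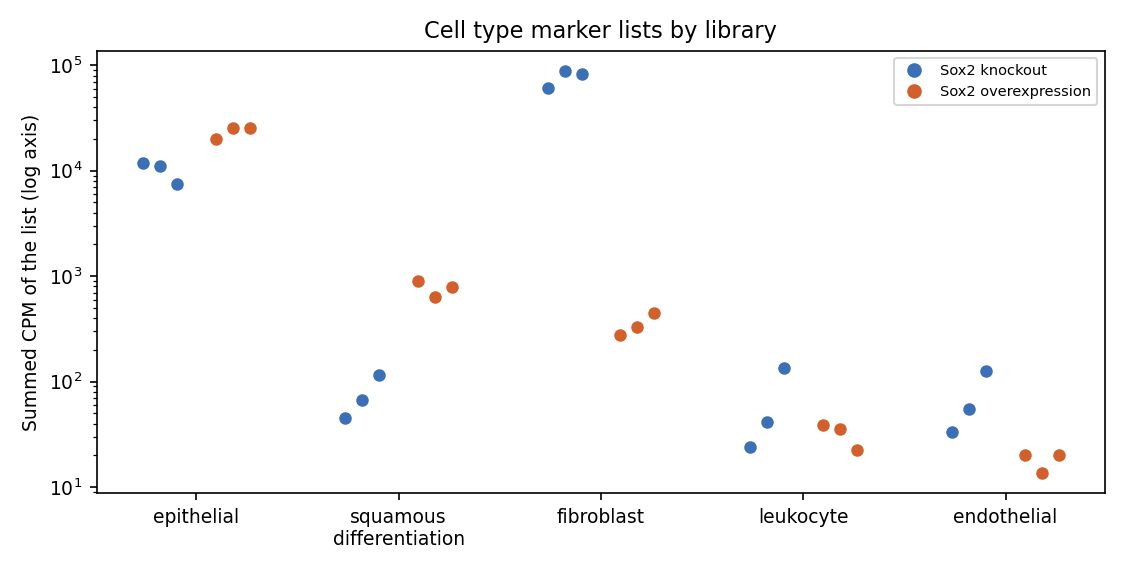
Summed CPM (logarithmic vertical axis) of the marker lists for epithelium, squamous differentiation, fibroblasts, leukocytes and endothelium, with 1 point per library in blue for Sox2 knockout and orange for overexpression. The fibroblast list separates the groups most widely, at 60448 CPM or more with knockout and 450.2 CPM or less with overexpression.

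Cers2 (chromosome 3, 95314791 to 95323599), which makes very-long-chain ceramides, was the most abundant member in both groups. It had 165, 155 and 151 CPM with knockout and 174, 225 and 166 CPM with overexpression, so the groups touched without overlapping. The log2 fold change was 0.26 ± 0.16 (SE, edgeR adjusted p = 0.247). Cers5 (chromosome 15, 99734881 to 99772885), a synthase of palmitoyl ceramides, had 71.2, 66.7 and 58.6 CPM against 63.9, 79.1 and 70.7 CPM, with overlapping groups and a log2 fold change of 0.12 (edgeR adjusted p = 0.565, approximate 95% interval -0.17 to 0.41). Cers6 (chromosome 2, 68861441 to 69114282), which also uses palmitoyl-CoA, had 28.4, 36.6 and 37.6 CPM against 29.6, 20.1 and 30.8 CPM. Its groups overlapped too, with a log2 fold change of -0.35 (edgeR adjusted p = 0.229, approximate 95% interval -0.75 to 0.05).

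Cers3 (chromosome 7, 66743504 to 66823691) makes the ultra-long-chain ceramides of the epidermis. It had 31.7, 18.8 and 17.1 CPM with knockout and 31.5, 18.8 and 22.5 CPM with overexpression. Replicate 1 was the highest library of each group, and the groups covered nearly the same range. The log2 fold change was 0.11 ± 0.28 (SE, edgeR adjusted p = 0.798). The approximate 95% interval from -0.45 to 0.66 leaves room for changes in either direction. Beside this, the squamous differentiation list had 9 of 14 tested genes higher and 1 lower past the threshold. Over all tested genes 13.6% were higher and 18% lower.

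The make-up of the synthase pool was compared by shares. Per kilobase of exon and with Cers1 included, Cers2 supplied 58.8% ± 1.61 of the summed level with knockout and 62.3% ± 3.91 with overexpression (SD, n = 3 each). Cers5 supplied 25.4% ± 1.03 and 24.6% ± 1.76, Cers3 9.41% ± 2.63 and 9.26% ± 3.01, and Cers6 5.36% ± 1.13 and 3.77% ± 1.14. Two-sided exact permutation tests gave p = 0.3 for Cers2, 0.7 for Cers5, 0.9 for Cers3 and 0.3 for Cers6, and 0.42, 0.817, 0.9 and 0.42 after adjustment over the 7 shares. Cers4 supplied 0.378% to 0.911% with knockout and 0.0285% to 0.0437% with overexpression. The shares depend on the length used. Per kilobase of coding sequence, Cers4 supplied 1.21% to 2.77% with knockout and 0.0914% to 0.139% with overexpression, and Cers6 means of 12.04% and 8.77%. On that scale the share of Cers2 did not overlap between groups, with means of 56.6% with knockout and 62.03% with overexpression. The exact permutation p for it was 0.1, the smallest possible (0.175 after adjustment over the 7 shares).

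**Figure D3:**
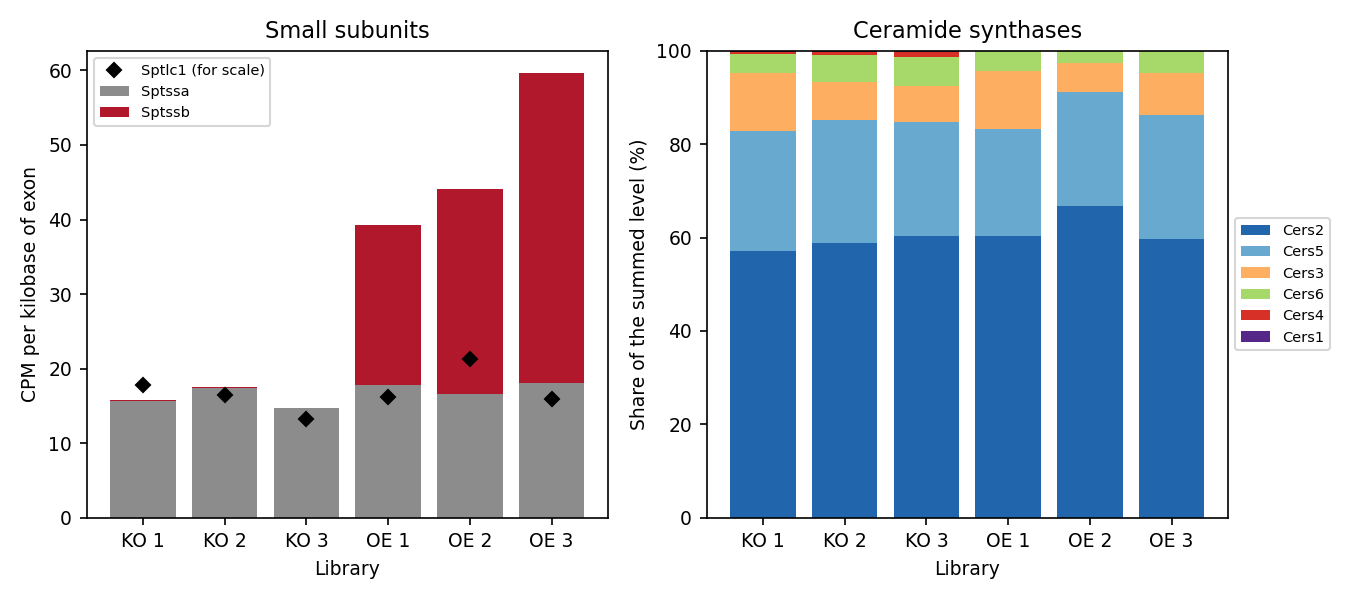
Left, level of the small subunits Sptssa (grey) and Sptssb (red) stacked per library in CPM per kilobase of exon, with Sptlc1 as black diamonds; right, share of each ceramide synthase in their summed level per library, in percent. KO marks Sox2 knockout and OE overexpression. Sptssb makes up 54.6% to 69.8% of the bar in the overexpression libraries and at most 0.713% with knockout, whereas Cers2 takes more than 57% of the synthase pool in all 6 libraries.

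On the same scale, the order of the 10 genes in the knockout libraries was Cers2 (42.7 CPM per kilobase), Cers5 (18.5), Sptssa (16.0), Sptlc1 (15.8), Sptlc2 (11.1), Cers3 (6.92), Cers6 (3.85), Cers4 (0.491), Sptssb (0.0495) and Sptlc3 (0.0176). The ranges of Cers5 and Sptssa, of Sptssa and Sptlc1, and of Sptssb and Sptlc3 overlapped between these neighbours, and the other neighbours were apart. With overexpression, Sptssb stood second at 30.1 CPM per kilobase, behind Cers2 (51.2) and ahead of Cers5 (20.1), Sptlc1 (17.8) and Sptssa (17.5). Its range overlapped that of Cers5. The neighbours Cers5 and Sptlc1, Sptlc1 and Sptssa, and Sptlc2 and Cers3 also overlapped there. Sptlc3 (0.120) and Cers4 (0.0286) were the lowest. The order moves with the length used. Per coding length, Sptssb stood first with overexpression (241 CPM per kilobase, against 165 for Cers2), and Cers4 (0.297) stood above Sptlc3 (0.202).

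Across the 6 libraries, the genes whose log2 CPM followed Sptssb most closely were Celsr1, St3gal6, Xrcc5, Ly6g6c and Mllt3, with Pearson's r of 0.998 for Celsr1 and 0.997 for the other 4, among 8271 genes with an average log2 CPM of at least 4. Sox2 came 11th with r of 0.996. Such values are easily reached, since the libraries form 2 separate groups, and 505 genes had r of at least 0.95. The genes most like Cers4 were Steap3, Fhl1 and Nav1, with r of 0.999 or more, and 579 genes had r of at least 0.95. Steap3 went from 109 ± 47.9 to 1.77 ± 0.509 CPM (SD, n = 3 each).

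The directions given here and below hold under TMM scaling, and they depend on what each library is scaled to. The epithelial list had 23 of 31 genes higher and 0 lower past the threshold with overexpression, against 13.6% and 18% of all tested genes. With each library scaled to that list (median ratio over its genes), the median over all tested genes went from -0.02 to -1.25 and 79.6% of them passed the threshold, 1.76% higher and 77.9% lower. Sptssb was then at 8.04 and Cers4 at -5.37. The other 7 tested partners had log2 fold changes from -1.61 (Sptlc2) to -0.97 (Cers2), all past the threshold and all lower, so that Sptssa, Sptlc1, Cers2, Cers3 and Cers5 changed direction. Relative to the median of all genes they lay at 0.15, 0.20, 0.27, 0.17 and 0.14, and Sptlc2 and Cers6 at -0.36 and -0.35. Ormdl1 and Ormdl2, Psat1, Slc27a4, Gltp, Sgms2, Acer3, Sphk2 and Plpp2, which rose under the main scaling, also turned to values below 0 on this scale, and Shmt1, Cerk and Acer2 no longer passed.

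The rest of the pathway was followed with 87 further genes in 7 lists, of which 79 were tested. In all, 17 were higher and 15 lower past the threshold, 32 of 79 against 31.6% of all tested genes, with a median log2 fold change of 0.05. The members of single lists went in both directions in most cases. The share past the threshold was 66.7% for regulators and de novo steps, 42.9% for serine supply and 20% for acyl-chain supply. It was 44.4% for epidermal acylceramide, 53.3% for complex sphingolipids, 16.7% for ceramide breakdown and 57.1% for sphingosine 1-phosphate. The counts below stand against 13.6% higher and 18% lower over all tested genes, and no list had more than 18 tested genes.

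All 3 Ormdl genes, whose proteins hold serine palmitoyltransferase back when ceramide is plentiful, passed the threshold, Ormdl1 and Ormdl2 higher under TMM scaling but below 0 when scaled to the epithelial list, and Ormdl3 lower under both. Ormdl2 had 537, 539 and 509 counts with knockout and 819, 1199 and 898 with overexpression, a log2 fold change of 0.89 (edgeR adjusted p = 0.0224). Ormdl1 rose by 0.58 (adjusted p = 0.0407, edgeR) and Ormdl3 fell by 0.53 on the log2 scale (adjusted p = 0.0375, edgeR). The groups did not overlap for any of the 3 genes, as was the case for 50.9% of all tested genes. Their summed level per kilobase was 33.5 ± 4.08 with knockout and 35.9 ± 7.01 CPM per kilobase with overexpression (SD, n = 3 each), so the sum differed by less than the SD within a group. These calls are fragile. Without knockout replicate 1 or 3, none of the 3 genes passed the threshold, and over the fits that left out 1 library the adjusted p-values reached 0.116 for Ormdl1, 0.0698 for Ormdl2 and 0.166 for Ormdl3. The exons of Ormdl2 overlap those of Dnajc14 on the other strand, and those of Ormdl1 overlap Gm28778 on the same strand.

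The other tested de novo genes did not pass, apart from the rare Cers1. Kdsr, which reduces the first product of the enzyme, had a log2 fold change of -0.06 (edgeR adjusted p = 0.768), and the dihydroceramide desaturase Degs1 one of 0.30 (edgeR adjusted p = 0.134). Cers1, the synthase known from brain and muscle, was at the edge of detection with 21, 12 and 29 counts against 5, 3 and 3. Its log2 fold change of -2.43 (edgeR adjusted p = 0.00915) did not pass without overexpression replicate 3 (adjusted p = 0.0605), and its exons overlap those of Gdf1 on the same strand.

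In the serine supply list, 2 of 7 genes were higher and 1 lower past the threshold. Shmt1, which interconverts serine and glycine in the cytosol, rose from 10.6 ± 1.61 to 27.8 ± 2.59 CPM (SD, n = 3 each), and Psat1, an enzyme of serine synthesis, from 41.2 ± 1.33 to 78.7 ± 14.4 CPM. Their log2 fold changes were 1.39 and 0.93 (edgeR adjusted p = 0.000529 and 0.00266). The amino acid transporter Slc1a5 fell by 0.86 on the log2 scale (edgeR adjusted p = 0.0121), with an adjusted p of 0.0512 without knockout replicate 2. Of the 10 tested genes that lengthen acyl chains, 7 had log2 fold changes above 0 and 3 below, with a median of 0.22. Past the threshold, 0 were higher and 2 lower, Hacd4 with a log2 fold change of -4.47 and Hacd1 with one of -1.39 (edgeR adjusted p = 7.08e-05 and 0.00162). Both encode dehydratases of the elongation cycle.

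The list for epidermal acylceramide, the barrier lipid that is built on the product of Cers3, had 4 of 9 tested genes higher and 0 lower, with a median log2 fold change of 0.87. It did not move as a whole, since 4 of the 9 had values below 0, Ephx3 at -1.01, Fa2h at -0.98, Pnpla1 at -0.90 and Abhd5 at -0.29, none past the threshold (edgeR adjusted p from 0.0541 to 0.363, named after their values were seen). Cyp4f39, the omega-hydroxylase of ultra-long fatty acids, had 16, 9 and 17 counts with knockout and 199, 183 and 437 with overexpression. All overexpression libraries were higher, and the log2 fold change was 4.22 (edgeR adjusted p = 7.26e-05). Abca12, the transporter that loads lamellar granules, rose from 0.248 ± 0.0396 to 3.01 ± 1.07 CPM (SD, n = 3 each), and its log2 fold change was 3.58. Tgm1, the transglutaminase of the cornified envelope, and Slc27a4, a fatty acid transporter, had log2 fold changes of 2.15 and 0.87. The epithelial and squamous lists given above were higher in sum in the same libraries.

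The list for complex sphingolipids, which holds enzymes that act on ceramide and its products and also lipid transfer proteins, was split. Past the threshold, 4 of 15 tested genes were higher and 4 lower. Those higher were the ceramide kinase Cerk (28.7 ± 3.66 to 67.5 ± 1.71 CPM, SD, n = 3 each), the glycolipid transfer protein Gltp (63.2 ± 6.65 to 139 ± 17.5 CPM), the sphingomyelin synthase Sgms2 and the sulfatide synthase Gal3st1. Sgms2 had a log2 fold change of 0.81 (edgeR adjusted p = 0.0255) and did not pass without knockout replicate 2 (adjusted p = 0.0967) or 3 (0.0744) or without overexpression replicate 1 (0.0513). Gal3st1 rested on 3 pooled knockout counts against 72, a ratio of 23.8 with an exact 95% interval from 7.81 to 118, and its fitted log2 fold change of 4.38 was 5.31 without knockout replicate 2. The 4 lower genes were Ugcg, B4galt6, St3gal5 and A4galt. Ugcg, the glucosylceramide synthase, had 64.4, 118 and 128 CPM with knockout and 38.5, 27.7 and 38.0 CPM with overexpression, a log2 fold change of -1.58 (edgeR adjusted p = 0.00231). The lactosylceramide synthase B4galt6, the GM3 synthase St3gal5 and the Gb3 synthase A4galt had log2 fold changes of -2.31, -1.48 and -4.02. Without overexpression replicate 3 the value of A4galt was -4.64. Other glycosyltransferases of the same list did not pass, among them B4galt5, B4galnt1 and St8sia1 with log2 fold changes of -0.63, 0.09 and -0.61 (edgeR adjusted p = 0.0511, 0.761 and 0.263), named after their values were seen. The fibroblast markers were high in the same knockout libraries, as given above.

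Breakdown of ceramide and its relatives had 2 of 18 tested genes higher and 1 lower past the threshold. The alkaline ceramidases Acer2 and Acer3 rose by 1.67 and 0.82 on the log2 scale (edgeR adjusted p = 0.00636 and 0.00743). The neutral sphingomyelinase Smpd3 fell from 9.79, 26.6 and 57.6 CPM with knockout to 1.01, 0.947 and 0.683 CPM with overexpression. Knockout replicate 3 had the highest Smpd3, and without it the log2 fold change of -5.16 was -4.36. That library was the richest in leukocyte and endothelial markers. Within the knockout group it also had the highest squamous differentiation sum (45.0, 66.9 and 116 CPM in replicates 1, 2 and 3).

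Genes for sphingosine 1-phosphate, the signalling lipid made from the breakdown product of ceramide, included 3 receptors that fell. Spns2, which exports it from the cell, rose from 81.7, 57.6 and 62.4 CPM to 464, 386 and 306 CPM, a log2 fold change of 2.52 ± 0.22 (SE, edgeR adjusted p = 4.74e-05). The kinase Sphk2 rose by 1.07 (edgeR adjusted p = 0.000792), and the phosphatase Plpp2 by 0.78 (edgeR adjusted p = 0.0225), the latter lost without knockout replicate 2 (adjusted p = 0.08) or 3 (0.067). Exons of Sphk2 (with Dbp and Rpl18), Spns2 (Mybbp1a), Smpd3 (Prmt7), Shmt1 (Smcr8), Hacd4 (Focad) and Cers2 (Setdb1) overlap in part those of the gene in parentheses on the other strand. Without strand, reads within the shared stretches cannot be told apart. The receptor S1pr3 fell from 30.4 ± 5.88 to 0.312 ± 0.0751 CPM (SD, n = 3 each), and its log2 fold change was -6.61 (edgeR adjusted p = 1.56e-06). S1pr1 and S1pr2 had log2 fold changes of -2.64 and -0.93 and the phosphatase Sgpp1 one of -1.29. In all, 3 of 14 tested genes of this list were higher and 5 lower past the threshold. The lower gene not yet named was the phosphatase Plpp3, opposite in direction to Plpp2. It went from 158 ± 74.0 to 45.0 ± 10.8 CPM, a log2 fold change of -1.81 (edgeR adjusted p = 0.00574). Plpp1 (0.08) and the receptor S1pr4 (-2.57) did not pass (edgeR adjusted p = 0.814 and 0.0553). These 3 genes were named after their values were seen. The falls again came with the fibroblast markers, and their part was not tested.

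**Figure D4:**
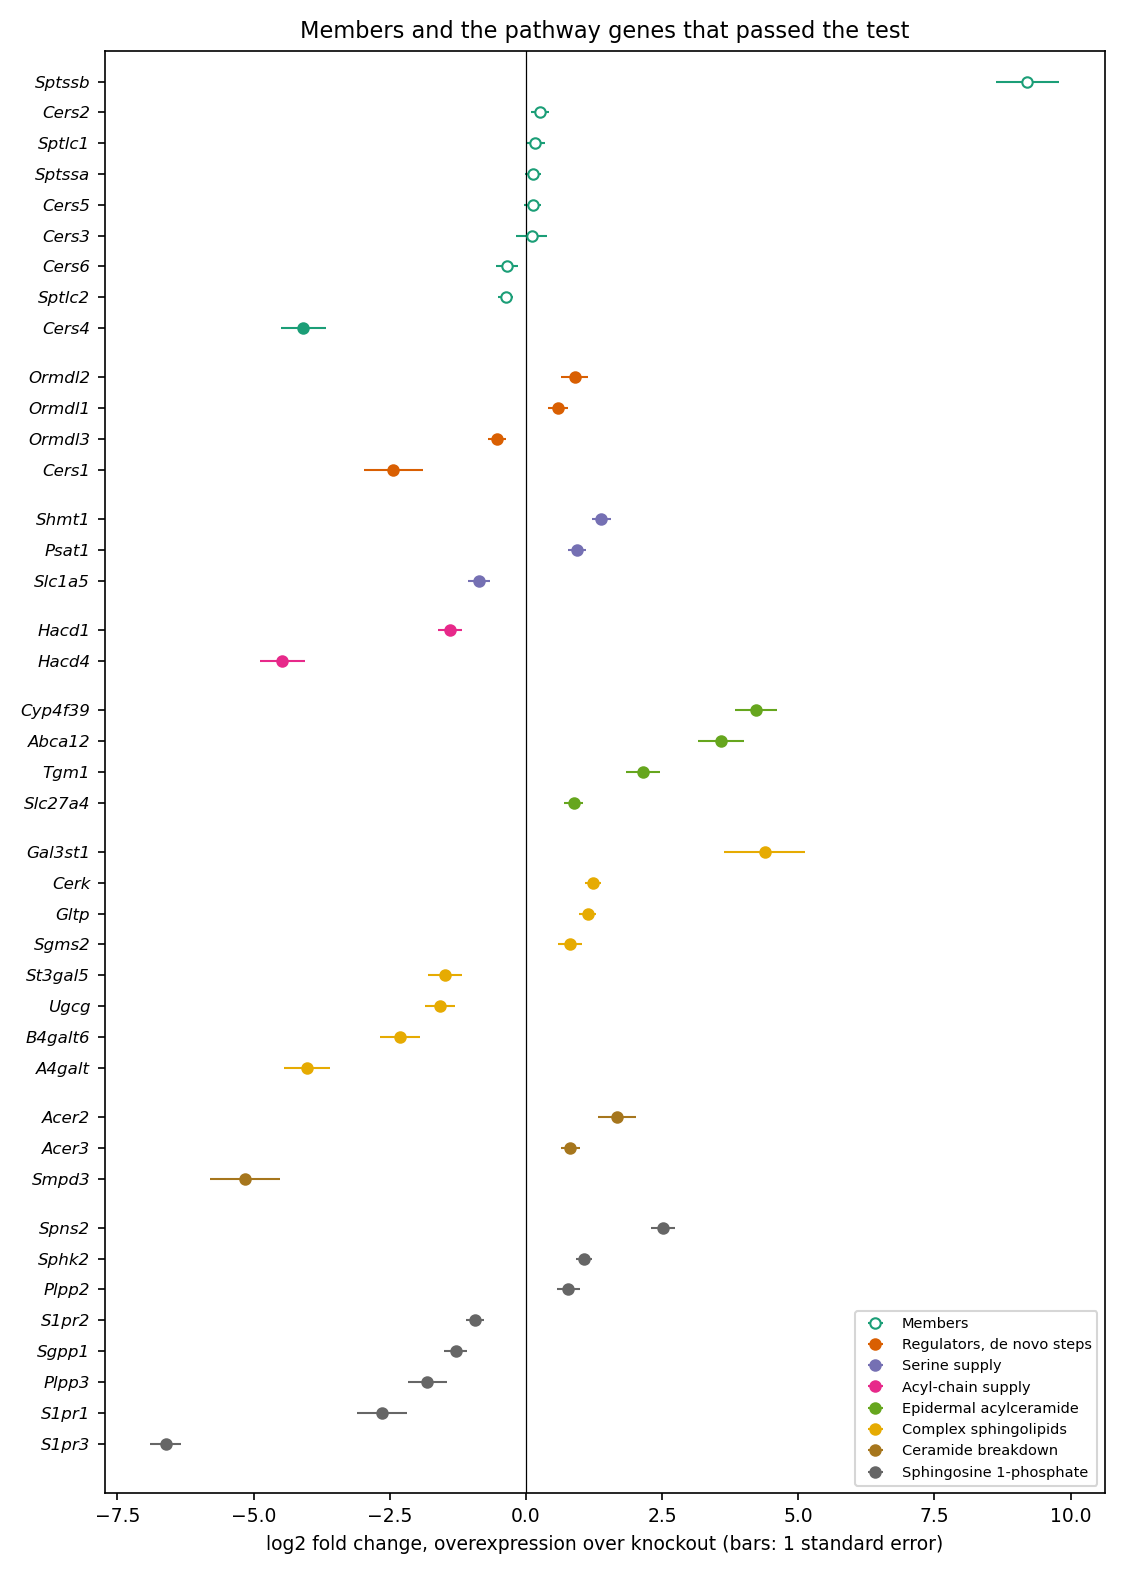
Log2 fold change of overexpression over knockout (horizontal axis) with 1 standard error for the 9 members that passed the filter and for the 32 pathway genes past the threshold, coloured by list. Open circles mark genes not past the threshold and Sptssb, for which no test is given. Sptssb lies at 9.21, most other members lie close to 0, and the pathway lists hold genes on both sides. The values are under TMM scaling.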

How the data were processed

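RNA-seq of 6 libraries was used, 3 per group as labelled. The authors deposited whole-number estimated counts per gene; kallisto 0.44.0 and mm10 are named, with no role, per the submitters' processing notes. In 14 of 16 sets of genes with identical transcripts the deposited counts were equal in every library, as estimates that divide shared reads would be. Annotation and strand setting are not given in the sources used here. Rows that name no mouse gene (96) held at most 2.23e-05% of a library and were left out. Symbols, positions and exon lengths are from GENCODE M21 (GRCm38), which matched 55144 of 55385 IDs.

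Genes kept by filterByExpr (18504, at a minimum count of 10 and a minimum total of 15) were scaled with TMM. The groups were compared in edgeR 4.0.16 (R 4.3.3) by its quasi-likelihood test, with group as the only term and Benjamini-Hochberg adjustment over all tested genes. Standard errors are the size of the log2 fold change over the square root of F. Levels per kilobase use merged exon length. The design had assumed raw counts; the test is the same for rounded estimates. Shares were compared with exact permutation tests (scipy 1.17.1). The fit was tested on simulated data. Alternatives were RLE and upper-quartile scaling, scaling to the epithelial list, no filter, robust dispersion, a replicate block, DESeq2 1.42.0, other lengths and leaving out each library. The members and lists were chosen with earlier results of these data known, and 2 genes of the lists are not reported here and were left out of their counts and sums. Named were the members, Sox2, in each pathway list the called genes with the smallest p (up to 4 per direction), all Ormdl, Kdsr, Degs and Cers1 genes, and the genes most like Sptssb (5) and Cers4 (3), leaving out predicted (Gm, Rik), mitochondrial, haemoglobin, immunoglobulin and ribosomal protein genes.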

Additional observations from a re-analysis of the deposited data

How the results depend on the processing

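Cers4 stayed lower and past the threshold under every alternative run (log2 fold change -5.37 to -3.87), and Sptssb ranged from 8.04 to 10.68, or from 8.59 to 10.68 when 1 library was left out. The 7 other tested partners passed the threshold under no alternative except the epithelial scaling, which called 8 partners and gave log2 fold changes of -1.09 for Sptssa, -1.04 for Sptlc1, -1.61 for Sptlc2, -0.97 for Cers2, -1.07 for Cers3, -1.10 for Cers5 and -1.60 for Cers6. With 1 library left out the count of partners called was 1 to 2. The second was Sptlc3, which passed the filter in 4 of these fits. Its edgeR adjusted p-values were 0.0472 without knockout replicate 3 and 0.0184 without overexpression replicate 2, but 0.071 and 0.0561 without knockout replicates 1 and 2. With knockout counts of 1, 2 and 2, it passed the filter only through the overexpression libraries, where it was higher. These p-values therefore give no support for a difference. With no filter the edgeR adjusted p of Sptlc3 was 0.054, and that of Cers4 was 8.83e-10. Hacd4, Cers1, Cyp4f39, Abca12, Gal3st1 and S1pr3, like Cers4, would not have passed the filter on the libraries of their lower group alone. Their p-values carry that limit too. The log2 fold change of Cers3 was -0.11 to 0.45 with 1 library left out. The epithelial scaling called 64 pathway genes, 5 higher and 59 lower, and gave -0.64 for Ormdl1, -0.34 for Ormdl2, -0.94 for Degs1, -0.31 for Psat1, -0.37 for Slc27a4, -0.10 for Gltp, -0.41 for Sgms2, -0.41 for Acer3, -0.17 for Sphk2 and -0.46 for Plpp2. That scaling shifts all genes by construction, and beyond that the cause of these changes was not tested.

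The share of Sptlc3 was higher with overexpression by 1.20 percentage points per kilobase of exon, by 0.424 from raw counts and by 0.422 per coding length. The difference in the share of Cers3 was -0.15 percentage points, 0.0986 from raw counts, 0.0818 per coding length and -1.68 to 1.37 with 1 library left out. The mean ratio of small subunits to Sptlc1 was 1.02 with knockout and 2.74 with overexpression, 2.79 and 8.28 per coding length, 0.844 and 2.12 per longest transcript, and 0.436 and 1.32 with no division by length, scales chosen for this ratio after seeing the data. Same-numbered libraries did not deviate together (correlations 0.0508, 0.0223 and -0.0399). This gave no sign of pairing but cannot show that the samples were unpaired, and the labels do not say. The replicate block called 1 partner, and 5593 genes in place of 5848, and Ormdl1 did not pass under it (edgeR adjusted p = 0.0653). Depth limits Sptlc3 and the knockout level of Sptssb, which rest on 5 and 9 pooled counts.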

Other observations

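Of the 87 pathway genes, 8 did not pass the filter on low counts and are given as counts only, named for that reason and with their values seen. Degs2, the desaturase that also hydroxylates ceramides of the skin, had 4, 7 and 11 counts in the knockout libraries and 0, 2 and 0 in the overexpression libraries. The late enzymes of the epidermal barrier pathway Alox12b and Sdr9c7 had at most 4 and 2 counts in any library, the elongase Elovl3 at most 3, the alkaline ceramidase Acer1 at most 6 and the galactosylceramide synthase Ugt8a at most 7. The phosphatase Sgpp2 had at most 16 counts and the receptor S1pr5 at most 6.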
